A study of Mus musculus with 18 samples.

Results

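The comparison described here asks which changes of gene expression reversed between peak disease and recovery in mouse sciatic nerve but not in dorsal root ganglia (DRG), and which did so in DRG but not in nerve. It rests on 12 of the 18 libraries of the series, 3 in each of 4 groups: nerve at peak, nerve at recovery, DRG at peak and DRG at recovery. The measure is the change from peak to recovery in nerve minus the same change in DRG, on a log2 scale, and is called the tissue difference below. A tissue difference above 0 means that nerve moved up relative to DRG.

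The labels of all groups give a C57BL/6 background and name no genotype, allele or agent. Ganglia were those of levels L3-L5. Peak disease was PID21 and recovery PID42, and 6 further libraries of both tissues came from mice with no disease. The labels leave out how disease was induced, the meaning of PID, and the age and sex of the mice. Nor do they tie libraries to animals, within a group or across the 2 tissues. P-values therefore reflect the spread of these libraries, which may be technical.

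The sciatic nerve holds the axons of sensory and motor neurons with their Schwann cells, fibroblasts, vessels and resident macrophages. The cell bodies of the sensory neurons lie in the DRG, wrapped by satellite glia. After damage to axon or myelin, Schwann cells of the nerve can leave the myelinating state and divide, macrophages take up myelin debris, and the distant cell bodies switch on an injury programme led by transcription factors such as Atf3. Most neuronal transcripts of a ganglion come from cell bodies, whereas a nerve holds axons without those cell bodies. The source of neuronal transcripts in the nerve libraries was not tested. In bulk tissue, fewer cells of a type and less RNA per cell cannot be told apart.

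Total counts per library ranged from 13686465 to 23435562. Neuronal markers matched the tissue labels. The neuronal gene Prph lay at 888 to 1280 CPM (counts scaled to library size) in the 9 DRG libraries and at 2.78 to 44.7 CPM in the 9 nerve libraries, and the neuronal gene Rbfox3 at 34.1 to 59 and 0.262 to 1.72 CPM. One DRG recovery library differed from the rest of its group, although single libraries were not tested for standing apart. On the first principal component of DRG, recovery replicate 1 scored 8.68 and the other two scored -19.6 and -14.7, while scores of 10.2 to 19.9 belonged to no disease. The DRG peak libraries were spread too, at -5.8, 2.3 and -16.65. On the second component DRG peak replicate 2 scored -25.1, against -4.9 and -6.5 for replicates 1 and 3. Recovery replicate 1 also differed in cell marker sums. Its summed level of 22 macrophage genes was 336 CPM against 717 and 698 CPM in the other two, its summed level of 10 neutrophil and mast cell genes was 122 against 523 and 464 CPM, and its red blood cell sum was 58.2 against 604 and 398 CPM. The results that rest on it are therefore given with and without it. In DRG the share of counts in ribosomal RNA features was 5.60% to 13.95% at peak and 3.62% to 4.83% at recovery, against 0.594% to 2.14% and 0.59% to 4.67% in nerve, and their part in the results was not tested.

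**Figure D1:**
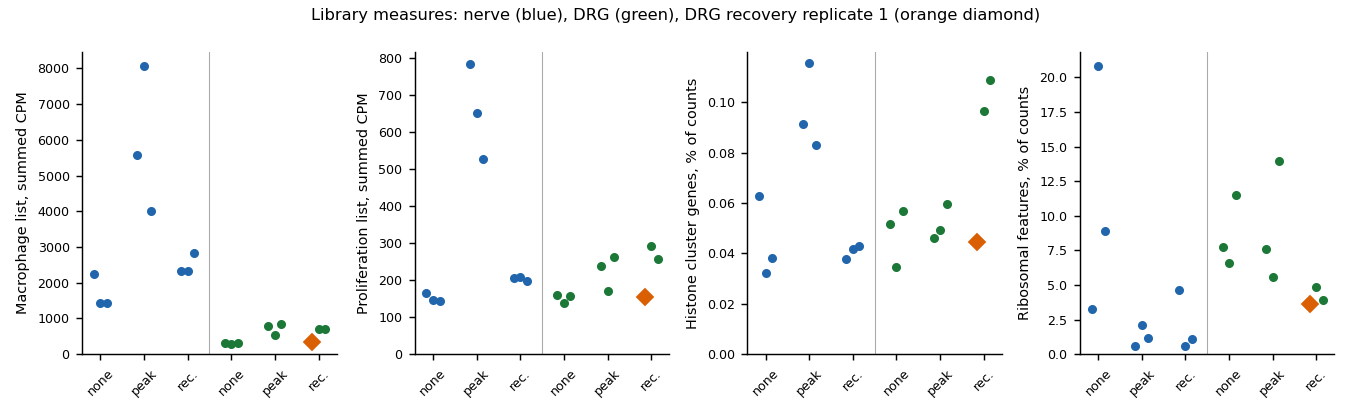
Each point is 1 library, in the order no disease, peak and recovery for nerve (blue) and then DRG (green). The panels show the summed CPM of the macrophage list and of the proliferation list, the percent of counts in histone cluster genes and the percent of counts in 3 features that hold ribosomal RNA reads. DRG recovery replicate 1 (orange diamond) has a macrophage sum of 336 CPM, near the no disease DRG libraries, and 0.0445% of its counts in histone genes.

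Nearly all of the change from peak to recovery that passed the threshold was in nerve. At an adjusted p under 0.05 (edgeR, quasi-likelihood F test, Benjamini-Hochberg over 17289 genes), 1960 genes rose (11.3%) and 1976 fell (11.4%) in nerve. In DRG 4 rose (0.0231%) and 15 fell (0.0868%), 19 or 0.11% in all. The spread of the changes differed too: the standard deviation of the log2 fold change over genes was 0.729 in nerve and 0.412 in DRG, while the median standard error was 0.165 and 0.167. The DRG count depends on one library. Without DRG recovery replicate 1 it was 224 higher and 514 lower, and with DESeq2 on all libraries 85 and 154. At an unadjusted p under 0.05 there were 2136 genes in DRG and 6175 in nerve. At q under 0.05 the authors' deposited table lists 43 genes higher and 98 lower in DRG, and 1117 higher and 1604 lower in nerve.

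The tissue difference itself was called for 1356 genes (7.84%), 598 higher (3.46%) and 758 lower (4.38%). Of the genes called in nerve, 1199 (30.5%) were also called for the tissue difference. The other 2737 nerve calls were not shown to differ from DRG. Leaving out DRG recovery replicate 1 raised the count to 1206 higher and 1292 lower, of which 1301 genes were among the 1356. Without recovery replicate 2 or 3 of DRG it was 175 and 321, or 178 and 333.

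The called genes were sorted by the tissue in which the change itself passed. For 702 genes (4.06%) nerve fell and DRG did not pass. For 495 genes (2.86%) nerve rose and DRG did not pass. In 6 genes (0.0347%) DRG fell and nerve did not pass, in 0 genes DRG alone rose, in 0 genes both tissues moved in opposite directions, and in 2 genes (0.0116%) both fell but by unequal amounts. The remaining 151 genes (0.873%) passed in neither tissue alone. A change that misses the threshold is not shown to be 0, so the 95% interval of the DRG change was also read. It lay within -1 to 1 for 592 of the 702 falling genes and for 457 of the 495 rising genes. The interval of the nerve change did so for 4 of the 6 genes in which DRG fell. Below, a change in 1 tissue alone or only means that the other tissue did not pass. Leaving out DRG recovery replicate 1 gave DRG-only classes of 203 falling and 66 rising genes, and 93 genes with opposite directions.

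The 702 genes that fell in nerve alone had a median log2 fold change of -0.91 in nerve and 0.10 in DRG. Against no disease their median was 0.91 in nerve at peak and 0.03 at recovery, comparisons that share the peak and the recovery libraries with the one that chose them. The 495 genes that rose in nerve alone had medians of 0.62 in nerve and -0.10 in DRG, and stood at -0.68 at peak and -0.03 at recovery against no disease. In no disease tissue, which the contrast did not use, 31.3% of the falling genes were over 2-fold higher in DRG than in nerve, against 22.3% of all genes tested. For the rising genes the share over 2-fold was 26.5%. Over 20-fold higher in DRG were 26 of the 495 rising genes, 3 of the 702 falling genes and 550 of all 17289 genes tested. Histone cluster genes made up 42 of the falling genes and 0 of the rising ones, of 57 tested. The median span of the rising genes on the genome was 59.2 kb, against 16.3 kb for the falling genes and 21.9 kb for all genes tested.

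**Figure D2:**
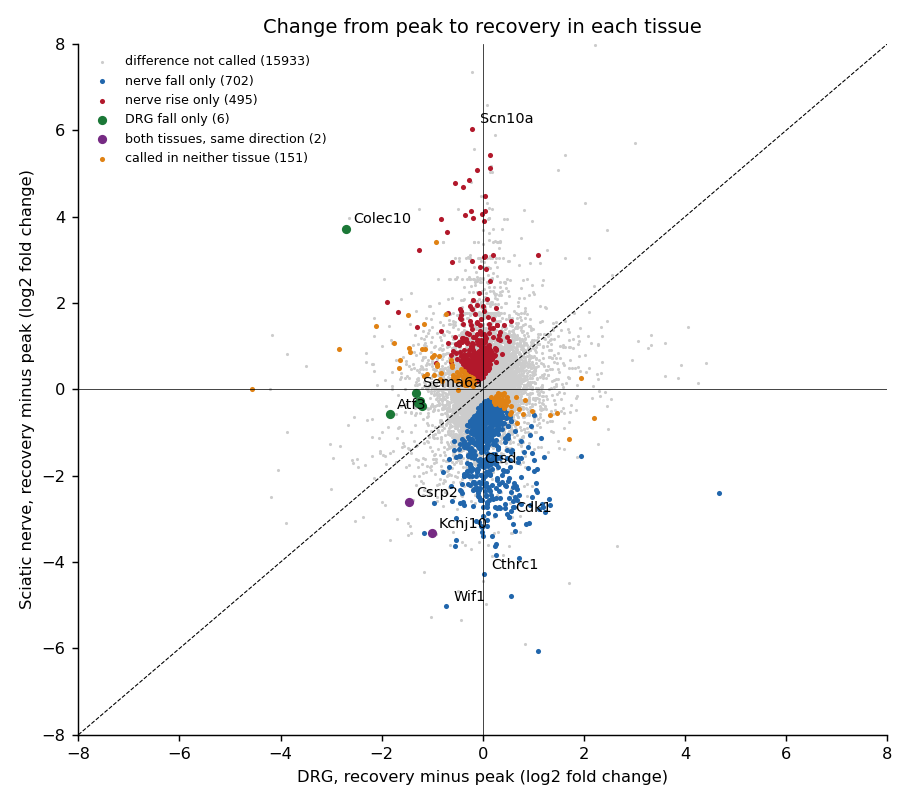
Each point is 1 of 17289 genes, with its log2 fold change from peak to recovery in DRG on the x axis and in nerve on the y axis. The dashed line marks equal change. Colours give the class of the 1356 genes called for the tissue difference, with counts in the key. The 702 blue and 495 red points spread along the y axis near x = 0, and the 6 green points lie left of it.

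Genes of dividing cells fell in nerve and did not pass in DRG. For this and the lists below, 11.4% of all genes tested fell in nerve and 7.84% were called for the difference. Of 28 proliferation genes, 27 fell in nerve, 0 passed in DRG, and 23 were called for the tissue difference, all lower, with a median tissue difference of -2.22 against 0.02 over all genes. Cdk1, the kinase that drives entry into mitosis, was at 20.6, 19.5 and 12.6 CPM in nerve at peak and at 2.17, 2.25 and 2.34 CPM at recovery. In DRG it was at 2.37, 0.902 and 3.11 CPM at peak and at 1.66, 3.98 and 3.26 CPM at recovery. The nerve groups do not overlap and the DRG groups do; over all genes tested, peak and recovery libraries were apart in 39.1% in nerve and 16.0% in DRG. The fall in nerve was -2.96 ± 0.37 (SE), the change in DRG 0.51 ± 0.40, and the tissue difference -3.47 ± 0.54 (edgeR adjusted p = 0.00216). Mki67, a nuclear antigen of cycling cells, was at 118, 99.9 and 76.5 CPM in nerve at peak and 17.8, 15.5 and 15.1 CPM at recovery. In DRG it was at 39.9, 21.4 and 43.4 CPM at peak and 18.7, 51.9 and 40.2 CPM at recovery, where replicate 1 was the low one. Its tissue difference was -2.69 ± 0.45 (adjusted p = 0.00301).

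Bub1, a kinase of the spindle checkpoint, fell in nerve by 3.19 ± 0.30 and was at -0.02 ± 0.29 in DRG. Ccna2, the cyclin of S and G2 phase, fell by 2.90 ± 0.30 and was at 0.24 ± 0.30, and Ube2c, which tags mitotic cyclins for destruction, fell by 2.74 ± 0.35 and was at 0.44 ± 0.35. Both genes share exon sequence with a neighbour, Exosc9 and Tnnc2. Pbk, a mitotic kinase outside the list, fell from 16.7, 20.5 and 12.2 CPM to 0.742, 2.15 and 2.16 CPM in nerve, with a tissue difference of -3.91 ± 0.58. The 5 list members not called for the difference were Bub1b, Plk1, Mcm2, Mcm6 and Pcna. With DRG recovery replicate 1 left out, 26 of the 28 were called and the median was -2.47.

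The promoters of 3 of these genes are shown because the members fell together and because cell cycle genes often carry a CCAAT box, bound by the factor NF-Y, and a cell cycle genes homology region (CHR), read by the complexes that switch these genes off outside division. Each window is the 200 bases before the RefSeq start on GRCm38.p6, on the strand of the gene, with CCAAT and TTTGAA on either strand in capitals. Cdk1 lies at chr10:69352913-69353112, Top2a, a topoisomerase of dividing cells, at chr11:99024190-99024389, and Mki67 at chr7:135716380-135716579, all on the minus strand.
Cdk1: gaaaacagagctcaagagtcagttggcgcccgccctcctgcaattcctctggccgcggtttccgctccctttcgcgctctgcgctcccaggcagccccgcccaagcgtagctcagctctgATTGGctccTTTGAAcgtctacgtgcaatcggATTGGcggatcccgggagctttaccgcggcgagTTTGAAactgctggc
Top2a: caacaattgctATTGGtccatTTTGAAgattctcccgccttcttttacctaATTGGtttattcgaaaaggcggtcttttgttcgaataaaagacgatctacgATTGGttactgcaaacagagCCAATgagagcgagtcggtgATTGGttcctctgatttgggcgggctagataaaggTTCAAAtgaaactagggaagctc
Mki67: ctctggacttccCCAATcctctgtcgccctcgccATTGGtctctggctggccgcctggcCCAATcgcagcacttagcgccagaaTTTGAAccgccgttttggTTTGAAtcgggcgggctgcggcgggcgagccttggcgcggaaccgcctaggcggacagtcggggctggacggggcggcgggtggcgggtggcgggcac
The windows hold 2, 5 and 3 CCAAT matches and 2 TTTGAA matches each. The RefSeq table held 25 promoters for 24 of the 28 genes. CCAAT was found in 22 of the 25 (88.0%) and TTTGAA in 9 (36.0%), while 29.3% of all 32851 RefSeq promoters hold CCAAT and 12.5% hold TTTGAA. Among the 15586 promoters matched to genes tested here, the shares are 31.0% and 8.01%. For the 702 genes that fell in nerve alone, 515 matched 621 promoters, of which 36.9% hold CCAAT and 12.1% TTTGAA. A match is a description of the letters and not evidence of binding.

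Replication-dependent histone genes, which are transcribed in S phase, also fell in nerve. Of 57 histone cluster genes tested, 45 fell in nerve and 44 were called lower for the tissue difference, with medians of -2.04 in nerve and 0.68 in DRG. Hist1h3d was at 5.57, 7.85 and 4.08 CPM in nerve at peak and 0.954, 0.681 and 0.779 CPM at recovery. DRG held 1.88, 1.23 and 2.95 CPM at peak and 1.23, 5.92 and 6.87 CPM at recovery, so that replicates 2 and 3 lay above all peak libraries and replicate 1 did not. Its tissue difference was -4.07 ± 0.79 (adjusted p = 0.00813). With that library left out its DRG change was 1.67 ± 0.44 (adjusted p = 0.0448), and 7 of the 93 genes with opposite directions were histone cluster genes. Hist1h2bh, Hist1h3b and Hist1h3c had tissue differences of -4.02 ± 0.73, -3.98 ± 0.91 and -3.92 ± 0.96. Hist1h3c lost its call without recovery replicate 1 or 2 of nerve, peak replicate 2 of nerve, peak replicate 1 or 2 of DRG and recovery replicate 2 or 3 of DRG, and also with limma-voom and with a replicate block by stage and number. Hist1h3b lost its call with limma-voom and without recovery replicate 2 or 3 of DRG. Histone cluster genes are near-identical copies, so the counting may have split their reads. Their share of counts in DRG at recovery was 0.0445%, 0.0965% and 0.109% in replicates 1, 2 and 3. The part of library preparation in these counts was not tested.

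Most macrophage genes fell in nerve, but their tissue difference did not pass. Of 22 genes, 15 fell in nerve and 0 passed in DRG, and 0 were called for the difference by edgeR, DESeq2 or limma-voom, with a median of -0.86, 19 of 22 negative and 10 at an unadjusted p under 0.05. Lyz2, the lysozyme of macrophages, was at 1977, 3337 and 1364 CPM in nerve at peak and 635, 661 and 808 CPM at recovery. DRG held 238, 145 and 306 CPM at peak and 78.1, 226 and 205 CPM at recovery, with replicate 1 below the rest. Its tissue difference was -1.23 ± 0.53 (adjusted p = 0.161). The lysosomal glycoprotein Cd68 was at -1.65 ± 0.25 in nerve and -0.72 ± 0.29 in DRG, a difference of -0.93 ± 0.38 (adjusted p = 0.136), and the pore-forming protein Mpeg1 at -0.96 ± 0.41 (adjusted p = 0.156). The calls turned on DRG recovery replicate 1: without it 10 of the 22 were called, the median was -1.12, Lyz2 was at -1.58 ± 0.46 (adjusted p = 0.0328) and Mpeg1 at -1.22 ± 0.37 (adjusted p = 0.041). That library was singled out partly by its low level of these same genes, so the added calls are not independent support. Without DRG recovery replicate 2 or 3, 0 were called, at medians of -0.66 and -0.655. The T cell coreceptor Cd4, also carried by some macrophages, was at -1.43 ± 0.57 (adjusted p = 0.132), and 0 of 15 lymphocyte genes were called (edgeR; 1 at an unadjusted p under 0.05).

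Lysosomal and lipid handling genes fell in nerve, and some differed between the tissues. The shares over all genes tested were 11.4% fallen in nerve and 7.84% called for the difference. Of 19 genes, 13 fell in nerve, 0 passed in DRG and 7 were called lower for the difference, 8 without DRG recovery replicate 1. Ctsd, a lysosomal aspartic protease, was at 1197, 1591 and 1028 CPM in nerve at peak and 347, 358 and 364 CPM at recovery. DRG held 394, 406 and 462 CPM at peak and 386, 376 and 403 CPM at recovery. The nerve groups stand far apart and the DRG groups overlap, and no disease DRG, at 464, 412 and 447 CPM, was as high. The tissue difference was -1.72 ± 0.18 (adjusted p = 9.56e-05), the DRG change -0.12 with a 95% interval of -0.38 to 0.15. Apoe, the lipid carrier protein of glia and macrophages, was at 3213, 4767 and 3406 CPM in nerve at peak and 1295, 1469 and 1812 CPM at recovery, against 1523, 1511 and 1515 CPM and then 1176, 1474 and 1620 CPM in DRG (difference -1.22 ± 0.27, adjusted p = 0.0145). The fatty acid binding protein Fabp5 had a difference of -1.27 ± 0.22 and the cysteine protease Ctsb, which shares exon sequence with Fdft1, -0.96 ± 0.20. Lgals3, Npc2 and Soat1 were the other called members. The summed macrophage level moved with these genes, from 4007 to 8071 CPM in nerve at peak to 2332 to 2838 CPM at recovery, and its part was not tested.

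Most repair Schwann cell genes fell in nerve, where 11.4% of all genes tested fell. Of 13 repair Schwann cell genes, 8 fell in nerve, 0 passed in DRG and 3 were called for the difference, with a median of -0.61. Sox4, a transcription factor of immature Schwann cells, was at 61.5, 81.5 and 61.5 CPM in nerve at peak and 24.3, 22.7 and 22.9 CPM at recovery, above the 13.5, 9.15 and 8.98 CPM of no disease. In DRG it stayed between 24.1 and 30.2 CPM in the 6 libraries. Its difference was -1.38 ± 0.19 (adjusted p = 0.000829), and its exons overlap Gm26735. Id2, an inhibitor of differentiation, had a difference of -1.38 ± 0.20, and Sox2, which holds Schwann cells in an immature state, -1.02 ± 0.19. Jun, the master regulator of the repair state, fell in nerve by 0.77 ± 0.18 but had a difference of -0.49 ± 0.25 (adjusted p = 0.237), with DRG at -0.28 ± 0.18. Of 11 Schwann lineage genes 1 was called, the sodium channel Scn7a, at 0.55 ± 0.13, called in 15 of 20 alternatives. That count is near the 7.84% called over all genes tested.

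Of 10 satellite glia genes, 4 fell and 1 rose in nerve, 1 fell in DRG and 3 were called lower for the difference, although the list median was 0.38. Among all genes tested, 11.4% fell in nerve and 4.38% were called lower for the difference. Kcnj10, an inward rectifier potassium channel, went from 58, 44.9 and 52.3 CPM at peak to 6.25, 3.82 and 5.32 CPM at recovery in nerve. In DRG it went from 42.3, 38.2 and 32 CPM to 22.9, 16.4 and 16.7 CPM. It fell in both tissues, by 3.33 ± 0.19 and 1.01 ± 0.17, and the difference of -2.32 ± 0.26 (adjusted p = 0.00015) was called. The receptor phosphatase Ptprz1 fell in nerve from 45.1, 58.4 and 34 CPM to 7.68, 7.75 and 7.22 CPM, below its no disease level of 9.73 to 19.1 CPM, while DRG libraries lay at 59.6 to 114 CPM (difference -2.21 ± 0.34). The endothelin receptor Ednrb had a difference of -1.03 ± 0.20.

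Cthrc1 and Wif1, both secreted, had the largest tissue differences among the nerve-only falls that met the level minimum for naming. Cthrc1, a secreted protein of matrix-producing cells, was at 51.5, 53.8 and 25.4 CPM in nerve at peak and 2.33, 2.51 and 1.86 CPM at recovery, back among the 2.01, 2.4 and 2.93 CPM of no disease. The 9 DRG libraries lay between 3.79 and 6.36 CPM. The tissue difference was -4.31 ± 0.36 (adjusted p = 1.42e-05), and the DRG change 0.02 with a 95% interval of -0.52 to 0.57. Wif1, a secreted inhibitor of Wnt ligands, was at 21.1, 16.6 and 17.9 CPM in nerve at peak and 0.636, 0.89 and 0.216 CPM at recovery. In DRG it was at 1.74, 0.193 and 1.36 CPM at peak and 0.375, 0.381 and 1.17 CPM at recovery, with overlapping groups. Its difference was -4.29 ± 0.82 (adjusted p = 0.00749, and 0.0529 without DRG recovery replicate 3).

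Most matrix genes fell in nerve. The shares of all genes tested were 11.4% fallen in nerve and 7.84% called for the difference. Of 18 fibroblast and extracellular matrix genes, 13 fell in nerve, 1 fell in DRG (Col5a2) and 3 were called for the difference, with medians of -0.94 in nerve, -0.43 in DRG and -0.50 for the difference. Tnc, a matrix protein of remodelling tissue, was at 185, 161 and 188 CPM in nerve at peak and 32.7, 26.4 and 26.8 CPM at recovery. In DRG it was at 32.9, 18.9 and 31.7 CPM and then 16.4, 11.4 and 15 CPM, groups that do not overlap either. The nerve fall was 2.64 ± 0.28 and the DRG value -0.97 ± 0.28 (adjusted p = 0.19), a difference of -1.67 ± 0.38 (adjusted p = 0.0185); its exons overlap 8030451A03Rik. Postn, a matricellular protein, had a difference of -1.12 ± 0.21 and the collagen chain Col5a1, whose exons overlap 2 other genes, -0.82 ± 0.16. Col1a1, the main chain of type I collagen, had a difference of -1.27 ± 0.46 (adjusted p = 0.0958). In DRG its peak replicate 1, at 888 CPM, stood above the 238 and 329 CPM of the other two.

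**Figure D3:**
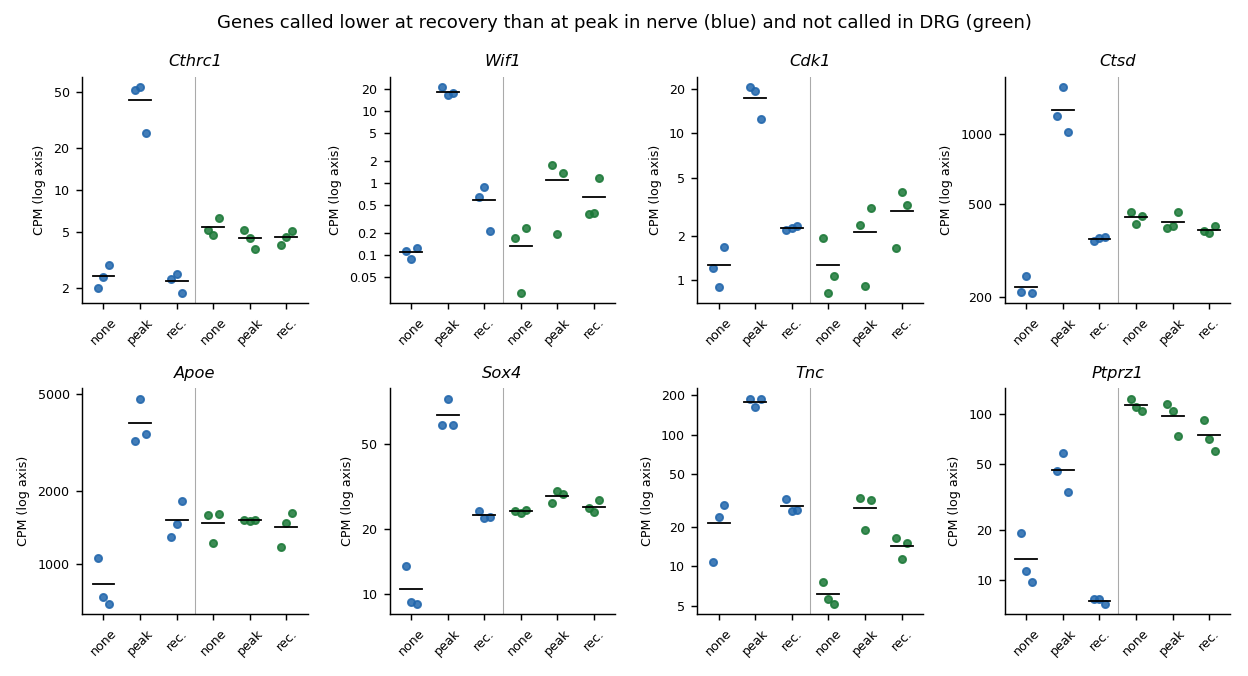
Each panel is 1 gene that was called lower at recovery than at peak in nerve and not called in DRG. Points are single libraries, bars the mean of 3, on a log axis of CPM, for no disease, peak and recovery in nerve (blue) and DRG (green), and a library at 0 is drawn at the foot of the panel. The nerve peak libraries stand above the recovery libraries in all 8 panels, by the widest margin for Wif1, and DRG libraries of Ctsd stay between 376 and 464 CPM.

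Atf3, Sema6a, Flrt3, Fst, Tubb6 and Colec10 were the 6 genes in which DRG fell and nerve did not pass. Their median log2 fold change in nerve was -0.286, so a smaller fall in nerve is not excluded. Of the 6, 2 genes, Atf3 and Flrt3, are on the neuronal injury list. Of 18 neuronal injury genes, 4 fell in DRG (background 0.0868%), 1 rose and 1 fell in nerve, and 5 were called higher for the tissue difference. The 5 calls depended on single libraries and on the libraries fitted: there were 0 with the 12 libraries alone, without DRG peak replicate 2, without DRG recovery replicate 2 or without nerve recovery replicate 1. There was 1 call without DRG peak replicate 3, DRG recovery replicate 3 or nerve recovery replicate 2, and there were 2 and 3 without nerve peak replicates 1 and 2. DESeq2 gave 7, and 8 and 7 were called without DRG peak replicate 1 and DRG recovery replicate 1. In DRG itself, 10 fell without recovery replicate 1. The list medians were -1.22 in DRG and 0.12 in nerve. Atf3, the transcription factor induced in injured neurons, was at 80.4, 162 and 149 CPM in DRG at peak and 37.8, 35.1 and 36 CPM at recovery, still above the 9.22, 8 and 12 CPM of no disease. In nerve it was at 34.3, 53.4 and 52.1 CPM at peak and 30.4, 28.8 and 34.4 CPM at recovery. It fell in DRG by 1.84 ± 0.23 (adjusted p = 0.00427) and was at -0.58 ± 0.23 in nerve (adjusted p = 0.0757). The tissue difference of 1.27 ± 0.32 (adjusted p = 0.0265) was not called without peak replicate 2 or 3 or recovery replicate 2 or 3 of DRG, nor without peak replicate 1 or recovery replicate 1 or 3 of nerve, where the adjusted p reached 0.0694.

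Flrt3, an adhesion protein of regrowing axons, was at 62.4, 106 and 97.9 CPM in DRG at peak and 39.5, 33.1 and 40.1 CPM at recovery. In nerve it was at 28.6, 30.6 and 35.5 CPM and then 28.4, 28 and 22.8 CPM, with a difference of 0.98 ± 0.24 (adjusted p = 0.0227), called in 13 of 20 alternatives. Ecel1, an endopeptidase of injured neurons, had a difference of 2.16 ± 0.59, with DRG at -1.67 ± 0.33 (adjusted p = 0.0546), and Sox11, a transcription factor of axon regrowth, 2.15 ± 0.58, with DRG at -1.20 ± 0.25 (adjusted p = 0.0628). The Ecel1 difference was called in 9 of 20 alternatives, with an adjusted p up to 0.0908, and the Sox11 difference in 10 of 20, up to 0.159. Nerve libraries of peak and recovery held at most 0.681 CPM of Ecel1 and 1.32 CPM of Sox11. Hspb1, a small heat shock protein, was the fifth call and rose in nerve. Sprr1a, a protein of regenerating neurons, went from 7.81, 22.1 and 17.1 CPM to 3.54, 2.62 and 1.35 CPM in DRG, at -2.66 ± 0.46 (adjusted p = 0.0516, and 0.0146 without DRG recovery replicate 1). It had 0 counts in the 3 nerve peak libraries and 6 in the recovery libraries, so no fold is given for nerve.

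Outside that list, Sema6a, a transmembrane semaphorin, was at 41.8, 68.1 and 44.6 CPM in DRG at peak and 26, 17.9 and 17.7 CPM at recovery, while the 6 nerve libraries lay between 29.9 and 38.1 CPM. Its difference of 1.26 ± 0.24 (adjusted p = 0.00813) was called in all 20 alternatives. Tubb6, a beta tubulin, was at 21.5, 31.1 and 28.2 CPM and then 11.6, 11.2 and 12.4 CPM in DRG. In nerve it was at 36, 38.4 and 42.6 CPM and then 32, 29.2 and 28.8 CPM, groups that do not overlap, at -0.38 with a 95% interval of -0.69 to -0.07 (adjusted p = 0.0684). Its difference of 0.81 ± 0.21 (adjusted p = 0.0291) was called in 11 of 20 alternatives. Fst, which binds activin, was at 8.09, 17.4 and 12.4 CPM and then 5.14, 5.92 and 4.52 CPM in DRG (difference 0.97 ± 0.28, adjusted p = 0.0478), and was called in 3 of 20 alternatives. Colec10, a collectin, was at 1.12, 2.96 and 2.58 CPM and then 0.161, 0.254 and 0.565 CPM in DRG, with 0 counts in nerve at peak and 5 at recovery.

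**Figure D4:**
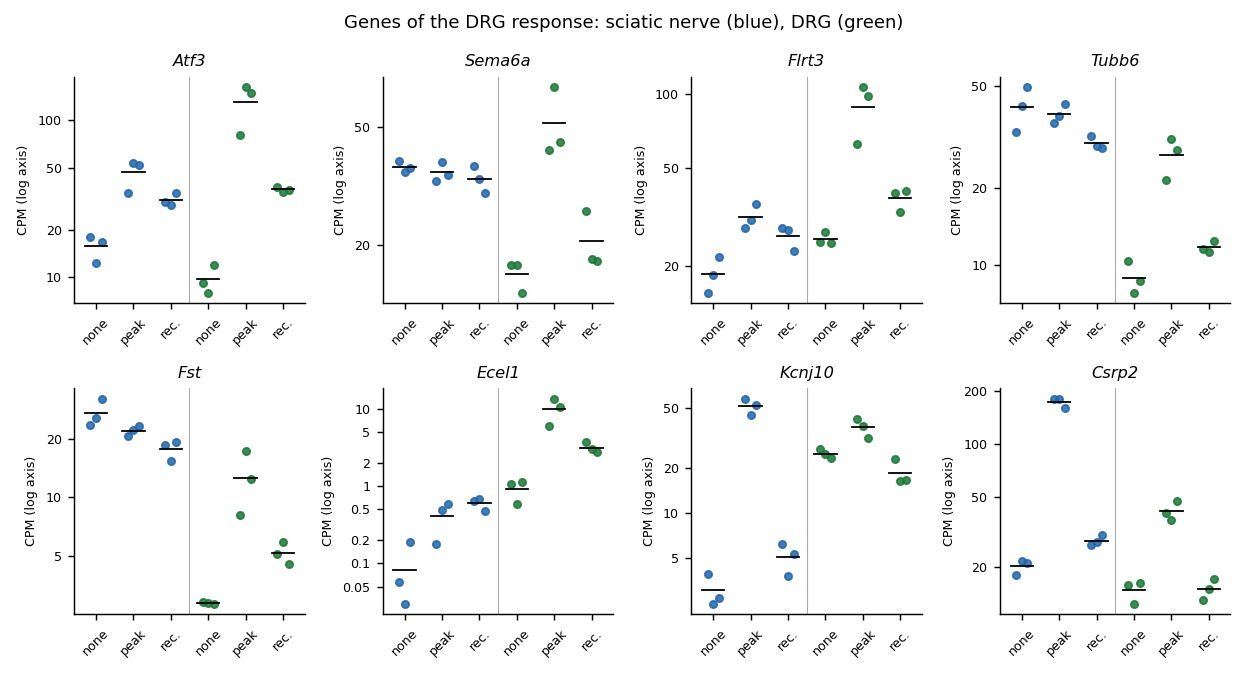
Each panel is 1 gene called for the tissue difference. Points are single libraries, bars the mean of 3, on a log axis of CPM, for no disease, peak and recovery in nerve (blue) and DRG (green), and a library at 0 is drawn at the foot of the panel. Atf3, Sema6a, Flrt3, Tubb6, Fst and Ecel1 have DRG peak libraries above all DRG recovery libraries, while Kcnj10 and Csrp2 fell in both tissues, more in nerve.

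A small group passed the threshold in both tissues. Shared direction was wider than shared calls: 2342 of the nerve calls (59.5%) had a DRG change of the same sign, passed or not. Of the 19 genes called in DRG, 7 were also called in nerve, 5 falling and 2 rising in both, and 0 in opposite directions. Csrp2, a LIM domain protein, fell from 180, 180 and 159 CPM to 26.5, 27.5 and 30.4 CPM in nerve and from 40.1, 36.7 and 47.1 CPM to 12.9, 14.8 and 17 CPM in DRG. The falls were 2.62 ± 0.13 and 1.47 ± 0.13, and differed by -1.15 ± 0.18 (adjusted p = 0.00186). The metalloprotease Mmp16 fell by 1.03 ± 0.16 and 0.95 ± 0.16, with a difference of -0.08 ± 0.22 (adjusted p = 0.857) whose sign turned without DRG peak replicate 1. The glial connexin Gjc3 fell by 1.16 ± 0.15 and 0.83 ± 0.15, and the collagen chain Col5a2 by 1.22 ± 0.12 and 0.71 ± 0.12.

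H2-Ab1 and H2-Eb1, which encode chains of the class II antigen presentation molecule, rose in both tissues. H2-Eb1 went from 77.4, 64.1 and 59.1 CPM to 136, 138 and 179 CPM in nerve and from 28.9, 23 and 24.7 CPM to 42.4, 76.4 and 76.5 CPM in DRG. The rises were 1.18 ± 0.22 and 1.35 ± 0.23, with a difference of -0.18 ± 0.31 (adjusted p = 0.767). H2-Ab1 rose by 1.14 ± 0.23 and 1.32 ± 0.24. Cd74, the invariant chain, rose in nerve by 1.20 ± 0.23 and was at 1.20 ± 0.23 in DRG (adjusted p = 0.0516), and the sign of its tissue difference turned between alternatives. Of 15 genes of the list 6 rose in nerve and 2 in DRG, and 0 were called for the difference by edgeR, DESeq2 or limma-voom (median -0.12; 1 at an unadjusted p under 0.05). Without DRG recovery replicate 1, 5 rose in DRG. The remaining 6 genes called in DRG but not for the difference were Star, Gpr151, Mobp and Lipn, which fell, and Drap1 and Gltscr2, which rose. They are named because so few passed. Mobp was at 52.4, 8.9 and 4.39 CPM in DRG at peak and 1.34, 1.27 and 1.83 CPM at recovery. Its peak replicate 1 thus stood far above the other peak libraries. Star, a steroid transport protein, went from 11.2, 14.4 and 15 CPM to 6.86, 4.06 and 5.08 CPM in DRG, and Gpr151, an orphan receptor of injured neurons, from 9.62, 23.9 and 21.9 CPM to 3, 2.71 and 3 CPM.

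Transcripts of sensory neurons rose in nerve from very low levels at peak, and in the fit of all libraries none of these lists had a member that passed in DRG. Of 15 channels and receptors of sensory neurons, 8 rose in nerve, 0 passed in DRG, and 4 were called for the difference, with medians of 1.66, -0.24 and 1.95. The 4 calls were 2 with limma-voom, 7 with DESeq2 or the 12 libraries alone, 8 without a filter, 9 without DRG recovery replicate 1 and 7 without nerve recovery replicate 3. Without DRG recovery replicate 1, 3 of the 15 fell in DRG. Scn10a, a sodium channel of nociceptors, was at 0.0449, 0.271 and 0.0389 CPM in nerve at peak, or 7 counts in all, and at 14.7, 5.39 and 2.42 CPM at recovery, or 436 counts. The ratio of recovery to peak was 67.8, with a counting interval of 32.6 to 170. In no disease nerve it was at 27.7, 7.28 and 3.43 CPM. DRG held 737, 876 and 628 CPM at peak and 856, 525 and 562 CPM at recovery. The tissue difference was 6.25 ± 1.29 (adjusted p = 0.0105, and 0.072 with limma-voom).

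Scn11a and Scn9a, sodium channels of the same neurons, had differences of 5.21 ± 1.15 and 5.14 ± 1.11. Trpm8, the cold receptor, had 3 counts in nerve at peak and 51 at recovery, a ratio of 18.5 with a counting interval of 5.98 to 92.7. Of 10 neuropeptide genes, 4 rose in nerve, 0 passed in DRG and 3 were called. The 3 calls became 0 with a replicate block by stage and number or without nerve recovery replicate 1, and 1 with limma-voom or without nerve peak replicate 1 or 2 or DRG recovery replicate 2 or 3, while DESeq2 gave 5. Tac1, the precursor of substance P, had 4 counts in nerve at peak and 171 at recovery, with 1.08 to 5.72 CPM at recovery (difference called in 13 of 20 alternatives), and Calca, which encodes CGRP, 47 and 731 counts, with 25, 9.27 and 3.55 CPM at recovery. Calca's difference was 4.09 ± 1.00 (adjusted p = 0.0238), called in 14 of 20 alternatives. Tmem233 and Kcnb2, a potassium channel, also differed, at 4.99 ± 1.30 and 4.36 ± 1.15 (called in 11 of 20 and 9 of 19 alternatives), and Adcyap1, a peptide precursor, was at 4.37 ± 1.05. In each of these genes recovery replicate 1 was the highest and replicate 3 the lowest.

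The same order held for genes abundant in DRG as a whole. A set of 265 genes was taken from the no disease libraries alone, at 50 CPM or more in DRG and at least 20 times the nerve level. Their median level, as a percent of no disease DRG, was 5.15%, 1.82% and 1.21% in no disease nerve, 1.18%, 1.12% and 0.777% at peak, and 2.64%, 1.45% and 0.92% at recovery. In DRG it was 82.5%, 88.0% and 81.0% at peak and 95%, 71.9% and 74.8% at recovery. Peak and recovery libraries overlap in both tissues. Of the 265 genes, 16 were called higher for the difference and 0 lower, where 3.46% and 4.38% of all genes tested were. The part of this overall level in the rise of the channels and peptides was not tested. Of 14 pan-neuronal genes, 7 rose and 1 fell in nerve. Stmn2, a microtubule protein of neurons, had a difference of 1.54 ± 0.36, and the surface protein Thy1 -1.24 ± 0.31, called in 17 and 13 of 20 alternatives. Calb1, a calcium buffer, had a difference of -2.06 ± 0.52, called in 11 of 20 alternatives, with nerve at 5.34, 6.55 and 1.9 CPM and then 1.7, 1.73 and 1.12 CPM, and DRG at 31.4, 39.3 and 29.5 CPM and then 45.9, 45.2 and 48.4 CPM.

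The myelin and sterol lists gave 1 call each, where 7.84% of all genes tested were called. Of 19 myelin genes 3 rose and 2 fell in nerve, 0 passed in DRG and 1 was called, with 17 of 19 differences above 0 and a median of 0.27. Ncmap, a membrane protein of compact myelin edges, was at 296, 196 and 265 CPM in nerve at peak and 423, 480 and 393 CPM at recovery, against 137, 132 and 134 CPM and then 95.2, 132 and 134 CPM in DRG (difference 0.94 ± 0.26, adjusted p = 0.0393). It was called in 11 of 20 alternatives and lost without any single DRG library of peak or recovery (0.0511 without DRG recovery replicate 1), without nerve peak replicate 2 and without nerve recovery replicate 1 or 2, with an adjusted p up to 0.0944. Prx rose in nerve by 0.80 ± 0.22 with a difference of 0.66 ± 0.31 (adjusted p = 0.194). Of 22 sterol synthesis genes 5 rose and 4 fell in nerve and 1 was called, the reductase Hsd17b7, at 1.01 ± 0.23 (adjusted p = 0.0165).

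The other lists gave at most 1 call each. Among all genes tested, 7.84% were called for the difference and 11.3% rose in nerve. Of 11 proprioceptor and mechanoreceptor genes 1 was called (Calb1), and of 10 immediate early genes 1 (Atf3). None of 12 endothelial genes was called, of which 5 rose in nerve, and none of 17 interferon, 10 neutrophil and mast cell, 10 adipocyte, 10 skeletal muscle or 7 red blood cell genes (edgeR; 0 of each at an unadjusted p under 0.05). The skeletal muscle median of -2.01 came with summed muscle levels of 5.39 to 52.5 CPM in nerve at peak and 8.95 to 14.8 CPM at recovery, and 3.43 to 63.9 CPM in DRG at recovery. The sign of this median was not stable. It was 0.514 with limma-voom, 0.531 without DRG recovery replicate 3 and 0.995 without nerve peak replicate 2, and negative in the other alternatives.

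**Figure D5:**
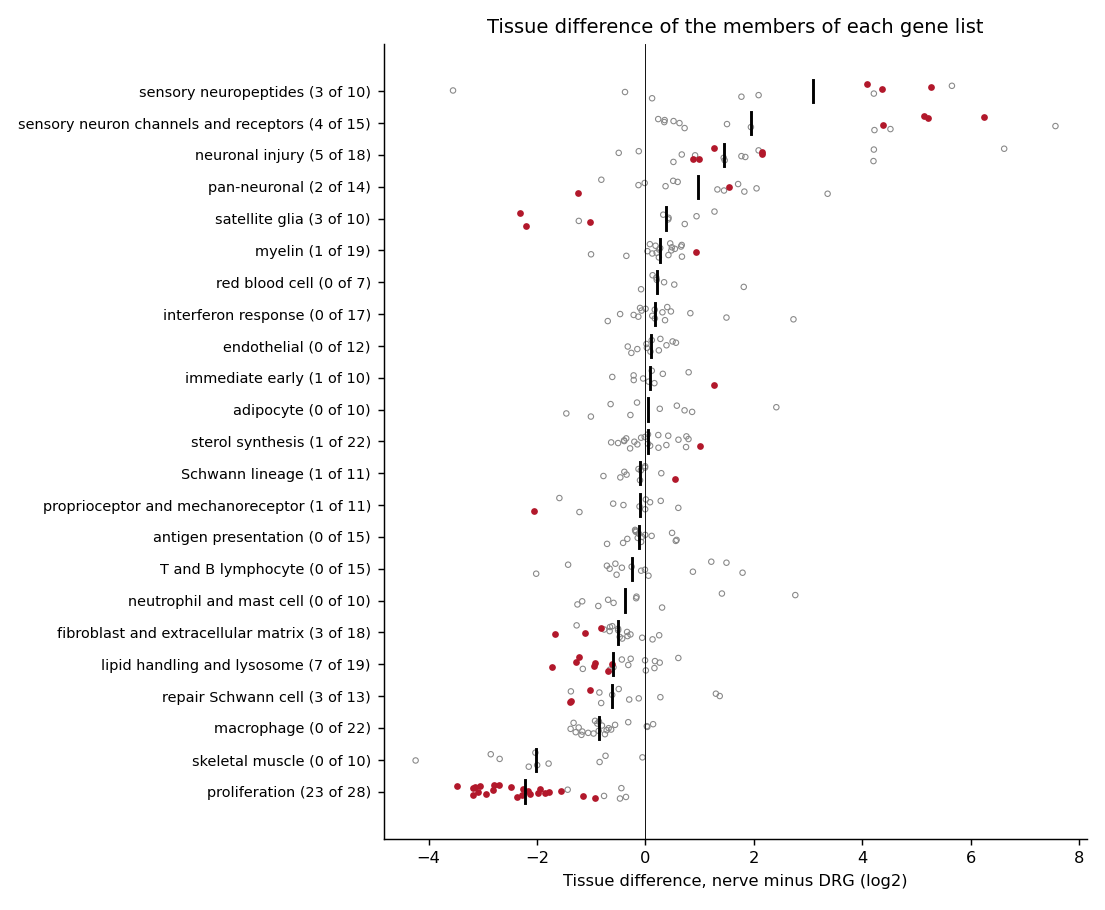
Each point is 1 gene of the list named on the y axis, placed by its tissue difference (nerve minus DRG, log2). Filled red points were called at an adjusted p under 0.05, open points were not, and the black bar is the median of the list, with the number called of the number tested beside the name. The proliferation list has 23 of 28 called at a median of -2.22, and the neuropeptides lie at a median of 3.09 with 3 of 10 called.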

How the data were processed

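RNA from sciatic nerve and from L3-L5 DRG of mice was sequenced as bulk mRNA libraries, per the labels' protocols. STAR 2.6.1a, kallisto 0.44.0 and Bowtie2 and the builds GRCm38 and mm10 are named in the submitters' processing notes; the counting tool, its strand setting and which step used which tool are not stated in the labels or headers. The deposited sheet holds the authors' whole-number counts per gene, not normalized. The authors' deposited comparison table holds log2 fold changes with p-values and q-values, and at q under 0.05 it lists 2507 genes for the interaction of condition and tissue, of which 2422 were tested here. Of the 1356 genes called here, 1052 are among them, which is 77.6% of the calls here and 43.4% of theirs.

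Counts of all 18 libraries, 3 in each of 6 groups, were fitted together with group means in edgeR 4.0.16 (R 4.3.3), with TMM factors, filterByExpr and a quasi-likelihood F test, which left 12 residual degrees of freedom. P-values were adjusted by Benjamini-Hochberg over 17289 genes at a threshold of 0.05. Standard errors (SE) were taken as the log2 fold change over the square root of F, and CPM values use TMM-scaled library sizes. A single gene's count intervals cover counting error only. The floor is 3 counts over the group.

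Members and the 23 gene lists were chosen with earlier results of these data known. Named genes were up to 7 per class by size of the tissue difference, with minimum levels of 5 CPM in the tissue that changed and 1 CPM in the other and with no overlap of peak and recovery libraries, up to 4 called members per list or the 2 most abundant where none was called, and a fixed list of anchor genes. That gave 77 genes; Top2a, the genes called in DRG and a few more were added after their values were seen. Alternatives were RLE factors, TMM within each tissue, no filter, 12 libraries only, DESeq2 1.42.0, limma-voom 3.58.1, replicate blocks and leaving out each library. The fit was tested on simulated data, with changes planted only in genes with many counts in both tissues. It recovered 22.4% of 1.5-fold, 80.6% of 2-fold and 100% of 4-fold tissue differences, with 6 false calls among 141. Recovery of changes in genes with few counts was not tested. Promoters came from RefSeq on GRCm38.p6. The lists, the split by class and the interval bound of 1 on the log2 scale were applied to the whole table.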

Additional observations from a re-analysis of the deposited data

Results flagged for a closer look

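The change from peak to recovery differed between nerve and DRG in a test of the difference itself for 1356 genes (edgeR, adjusted p under 0.05). The log2 tissue difference stands in parentheses after each named gene that passed. Below, lower or higher in nerve relative to DRG describes the change from peak to recovery. It does not describe the level of a gene in either tissue. The proliferation and histone genes that were lower in nerve relative to DRG were Hist1h3d (-4.07), Hist1h2bh (-4.02), Hist1h3b (-3.98), Hist1h3c (-3.92), Pbk (-3.91), Cdk1 (-3.47), Ube2c (-3.18), Bub1 (-3.17), Ccna2 (-3.14), Top2a (-2.78) and Mki67 (-2.69). The lysosomal and lipid handling genes that were lower in nerve relative to DRG were Ctsd (-1.72), Fabp5 (-1.27), Apoe (-1.22) and Ctsb (-0.96). The secreted, matrix and glial genes that were lower in nerve relative to DRG were Cthrc1 (-4.31), Wif1 (-4.29), Tnc (-1.67), Postn (-1.12), Col5a1 (-0.82), Id2 (-1.38), Sox4 (-1.38), Sox2 (-1.02), Kcnj10 (-2.32), Ptprz1 (-2.21), Ednrb (-1.03) and Csrp2 (-1.15). The neuronal genes Thy1 (-1.24) and Calb1 (-2.06) were also lower in nerve relative to DRG. Higher in nerve relative to DRG were, among transcripts of sensory neurons, Scn10a (6.25), Tac1 (5.28), Scn11a (5.21), Scn9a (5.14), Tmem233 (4.99), Kcnb2 (4.36), Calca (4.09), Trpm8 (4.38), Adcyap1 (4.37) and Stmn2 (1.54). Higher in nerve relative to DRG were, among DRG injury genes and the DRG-only falls, Colec10 (6.43), Atf3 (1.27), Sema6a (1.26), Flrt3 (0.98), Fst (0.97), Tubb6 (0.81), Ecel1 (2.16) and Sox11 (2.15). Higher in nerve relative to DRG were, among glial and sterol genes, Ncmap (0.94), Hsd17b7 (1.01) and Scn7a (0.55). Colec10 had 0 counts in the nerve libraries of peak, so its fitted value is no bound on a fold. With 3 libraries a group, single libraries were not tested for standing apart from their group.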

How the results depend on the processing

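The tissue difference was called for 1356 genes, and for 820 with the 12 peak and recovery libraries alone, 2049 with DESeq2 and 664 with a replicate block by stage and number. The 19 DRG calls became 4 with 12 libraries, 239 with DESeq2, 29 with RLE factors, 39 with TMM within each tissue, 34 with limma-voom, 68 without a filter and 37 with a replicate block by number. Nerve-only falls (702) were 1054 with DESeq2 and 344 where a difference of at least 1 was asked. Nerve-only rises (495) were 224 with 12 libraries, 275 without a filter and 143 at a difference of at least 1. DRG-only falls (6) were 0, 32, 10 and 3 with 12 libraries, DESeq2, no filter and a difference of at least 1. DRG-only rises (0) were 21 with DESeq2, 1 with TMM within each tissue, 1 without a filter and 2 with the block by number, and opposite changes (0) were 10 with DESeq2 and 1 with that block. Changes in the same direction (2) were 18 with DESeq2 and 5 without a filter, and genes called in neither tissue (151) were 51, 248, 99 and 39 with 12 libraries, DESeq2, no filter and a difference of at least 1. The cause of these shifts was not tested.

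Leaving out 1 library at a time gave 496 to 2498 genes for the difference, 2242 to 4453 for nerve and 4 to 738 for DRG. The classes ranged from 317 to 1048 nerve-only falls, 166 to 758 nerve-only rises, 0 to 203 DRG-only falls, 0 to 66 DRG-only rises, 0 to 93 opposite changes, 1 to 13 in the same direction and 10 to 402 in neither. List members called ranged from 39 to 81 and named genes from 32 to 51. The highest counts for the difference and for DRG came without DRG recovery replicate 1, and the lowest for the difference without DRG recovery replicate 2.

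Of the 50 called named genes, 7 lost their call with 12 libraries, 12 with limma-voom and 2 to 17 without a single library, and 0 changed sign under these alternatives. Cd74, near 0 and never called, turned positive at 0.0373 with limma-voom, 0.0386 with the block by stage and number, and ranged from -0.235 to 0.128 without single libraries. Mmp16 ranged from -0.208 to 0.101 there, positive without DRG peak replicate 1 (0.0745) and without nerve peak replicate 2.

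Whether replicate numbers mark paired samples stayed unknown, since a low correlation does not exclude a shared animal. Of 9 same-numbered pairs, 4 had correlated deviations over 0.1 (range -0.03 to 0.27), and 4 of 9 correlated best with their own number. Replicate 1 did so in no disease, peak and recovery, at 0.13, 0.19 and 0.27. A replicate block by number gave 1207 genes for the difference, 546 higher and 661 lower. Rare transcripts limit the precision in nerve at peak, where the 9 neuronal genes named for their rise had 3 to 47 counts over 3 libraries of 17129319 to 23435562 total counts.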
